A study of Mus musculus with 8 samples.

Results

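The response of EO771 cells, a mouse mammary carcinoma line, to the lipid 12-HETE was described across all genes that the count table measured well enough to test. The genes were those whose counts averaged 10 or more across the series' 8 libraries, which were 6901 of 49997 genes, and the comparison used 4 of the 8 libraries. In vehicle replicates 4 and 5 the cells received 2% DMSO in saline, and in 12-HETE replicates 4 and 5 they received 100 nM 12-HETE for 48 h. The other 4 libraries were EO771 cells transduced with a vector that was either empty or carried ADAR1 p150 for overexpression, as replicates 1 and 2 of each, and no added lipid is named for them. The groups share one cell line with no named knockout, and the experiments share no library. The labels do not say that replicates came from separate cultures, although the study describes its editing comparison of these conditions as made in independent experiments, and the p-values measure the spread between these libraries.

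12-HETE is made from arachidonic acid by 12-lipoxygenase, encoded by Alox12, and acts on cells as a signalling lipid. ADAR1, encoded by Adar, converts adenosine to inosine in double-stranded RNA, and its p150 isoform is induced by interferon. The study asked how 12-HETE changes tumour cells through RNA editing and interferon-stimulated genes, and the same libraries hold the rest of the transcriptome: the genes of the division cycle, of RNA splicing and of attachment to other cells and to the matrix, which are the main subject here. In dividing cells, replication genes are known to rise before DNA synthesis and mitotic genes after it. Splicing factors, the SR and hnRNP proteins, bind pre-mRNA and set which exons are joined, and integrins and cadherins hold cells to the matrix and to each other.

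Total counts were 1145064 and 1201351 in the vehicle libraries and 1537037 and 1530304 in the 12-HETE libraries, and between 1101767 and 1537037 over all 8. AY036118, a gene picked once its values were known, made up 44.4% to 50.3% of each library. Because the 12-HETE libraries were deeper, counts are given below as deposited, in the order vehicle 4, vehicle 5, 12-HETE 4 and 12-HETE 5, and whether the groups overlap was judged on TMM-normalised CPM (counts scaled for library size). Of 15 luminal epithelial markers 7 had a mean count of at least 10, their summed counts were 365 to 470 in vehicle and 381 to 431 with 12-HETE, and Cdh1, Pgr and Gata3 were at 0. The 13 mesenchymal markers summed to 492 to 623 and to 580 to 707. Markers of other cell types stayed low: 7 leukocyte markers summed to 4 to 9 in vehicle and 7 to 12 with 12-HETE, 12 myeloid markers to 46 to 48 and 29 to 30, 13 T, NK and B cell markers to 6 to 8 and 4 to 7, and 8 basal markers to 41 to 47 and 43 to 48. The 11 endothelial markers summed to 153 in each vehicle library and to 158 and 181 with 12-HETE, and the 6 erythroid markers to 36 to 44 and 63 to 65. In the epithelial list 2 of the markers, Krt18 and Cldn3, were lower with 12-HETE, and in the other lists 0 passed the test. The part of these markers in the results was not tested.

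How reads were assigned to strands bears on every gene below. The methods describe directional libraries, the labels name a different kit, and whether fragments were counted by strand is not given in the sources used here. Of the 6568 tested genes that could be placed on the genome, 4002 had another gene on the opposite strand within their bounds and 2566 had none. Several of the most heavily counted genes were predicted genes lying opposite a well-known one. For example, Gm38733, opposite the beta-actin gene Actb and picked after its values were seen, held 13168 and 13103 counts in vehicle and 21213 and 21735 with 12-HETE, whereas Actb averaged 737 counts over the 8 libraries. Reads from a gene and from its opposite partner cannot be told apart here. With the strand setting unknown, the counts of a gene with no partner need not come from its own transcript either, so the lack of a partner is no safeguard. The gene lists are given for all members and for members with no gene opposite, and some also for the most abundant gene opposite each member. The last was added after the data were seen, and its part in any result was not tested.

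In the comparison of 12-HETE with vehicle, 422 genes were higher and 569 were lower at an adjusted p under 0.05 and a change of at least 2-fold (quasi-likelihood test in edgeR, adjusted by Benjamini-Hochberg), which is 6.12% and 8.25% of the genes tested. At the adjusted p alone 1039 genes (15.1%) were higher and 982 (14.2%) were lower, and these are the shares against which the counts of list members below are read. Over all genes tested the median log2 fold change was 0.00. The libraries of the 2 groups did not overlap for 4425 genes (64.1%). Genes with none opposite passed in 236 of 2566 (9.2%) higher, with 336 (13.1%) lower and a median of -0.05, and the most abundant genes opposite another passed in 417 of 2245 (18.6%) higher and 329 (14.7%) lower, with a median of 0.04. Whether these shares differ was not tested.

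Where called genes averaged 50 counts or more and did not overlap, 8 of the 12 highest and 4 of the 12 lowest were predicted, RIKEN or LOC genes. Gm29539, an lncRNA on the strand opposite the ligand gene Wnt6, had 5 and 10 counts in vehicle and 163 and 152 with 12-HETE, a rise of 4.18 ± 0.27 (log2, SE, adjusted p = 1.6e-14). Tsix, the antisense partner of the X-inactivation RNA Xist, had 102 and 90 counts and then 1292 and 1398, a 12.3-fold rise (log2 3.62 ± 0.12, adjusted p = 2.7e-22), from 81.0 ± 8.95 to 996 ± 105 CPM (SD, n = 2). The counts assigned to Xist itself, on the other strand, were 6, 3, 43 and 37. In both genes the 12-HETE libraries stood above both vehicle libraries. Ush1g, a scaffold gene known from hair cells of the ear, rose from 8 and 10 counts to 76 and 69 (log2 2.80 ± 0.31, adjusted p = 4.9e-09). Rbpj-ps2, a pseudogene of the Notch effector Rbpj, rose from 7 and 13 counts to 136 and 122, and a pseudogene can share reads with its parent gene.

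At the other end, Bcan, which encodes the proteoglycan brevican, fell from 235 and 232 counts to 27 and 32, from 197 ± 6.16 to 21.9 ± 3.71 CPM (SD, n = 2; log2 -3.17 ± 0.17, adjusted p = 2.0e-16). Trpm1, a cation channel gene, fell from 83 and 79 counts to 10 and 5 (log2 -3.60 ± 0.30, adjusted p = 1.4e-11). Krtap5-5, a keratin-associated protein gene, had 95 and 114 counts and then 11 and 7 (log2 -3.71 ± 0.27, adjusted p = 3.7e-13). In all 3 the groups were far apart. D930030F02Rik, on the strand opposite the chloride channel gene Ano1, had 389 and 360 counts in vehicle and 19 and 21 with 12-HETE, which was 21.2-fold lower (log2 -4.41 ± 0.18, adjusted p = 4.5e-20). Among the 6901 tested genes 1627 were predicted, RIKEN or LOC genes, of which 117 were called higher and 189 lower.

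**Figure D1:**
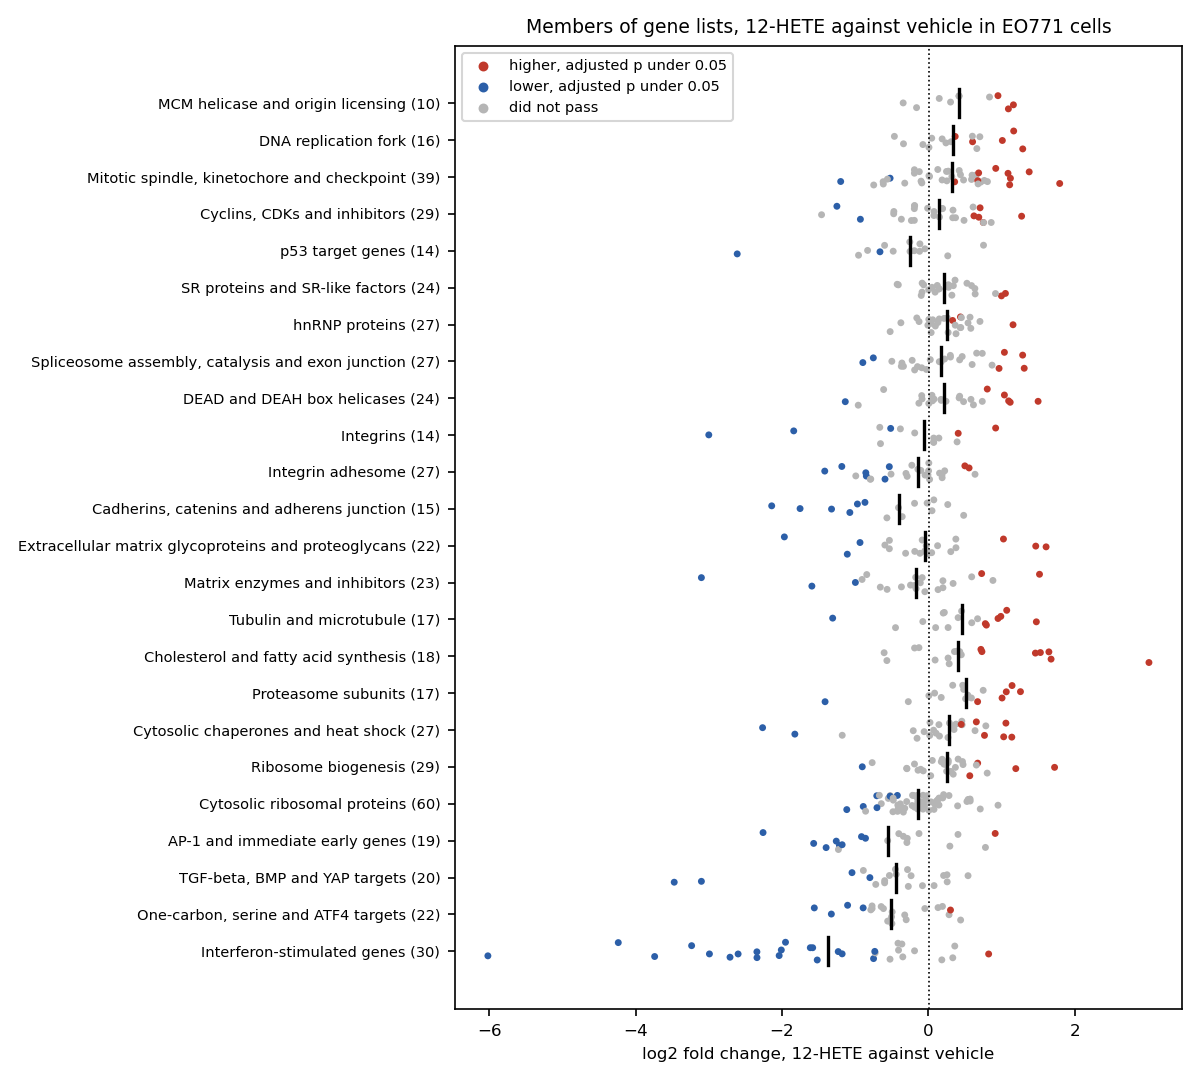
Log2 fold change of each tested member (points) of 24 gene lists in 12-HETE against vehicle, with the number of members tested in brackets and the list median as a black bar. Medians of the replication, mitotic, hnRNP, tubulin, cholesterol and proteasome lists lie to the right of 0, and those of the cadherin, AP-1, TGF-beta and interferon-stimulated lists to the left.

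Cell cycle genes, in 8 lists, were more often higher than lower with 12-HETE. Of 365 members measured 156 passed the minimum count, and of these 28 (17.9%) were higher and 9 (5.77%) lower. The share higher was near the 15.1% of all genes tested, and the share lower was below their 14.2%. Among members averaging 50 counts or more, 12 were higher and 10 lower. The median log2 fold change of the 156 members was 0.19, where all genes had 0.00. For the 89 members with no gene opposite, 12 were higher and 5 lower, with the same median of 0.19, and of the 60 genes most abundant opposite a member, 21 were higher and 5 lower, with a median of 0.29. Leaving out vehicle 4, vehicle 5 or 12-HETE 4 left 16, 17 or 15 members higher, and DESeq2 in place of edgeR passed 6 higher and 5 lower.

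Genes that license and fire replication origins and that copy DNA were higher with 12-HETE where they passed the test. In the MCM and licensing list 3 of 10 tested genes were higher and 0 lower, with a median of 0.42, and in the replication fork list 5 of 16 were higher and 0 lower, with a median of 0.34. The MCM median was -0.25 among members averaging 50 counts or more, so its sign depends on genes of low count. With no gene opposite, 3 of 6 MCM members (median 0.89) and 1 of 8 fork members (median 0.28) were higher and 0 lower. Mcm3, a subunit of the replicative helicase, had 18, 23, 54 and 51 counts, or 17.2 ± 2.6 CPM in vehicle and 38.8 ± 0.38 CPM with 12-HETE (SD, n = 2; log2 1.16 ± 0.31, adjusted p = 0.0044). Mcm2, another subunit, had 17, 21, 54 and 39 counts (log2 1.09 ± 0.30, adjusted p = 0.0050). These are low counts, and neither gene passed with DESeq2 in place of edgeR. The groups did not overlap, which held for 64.1% of all genes tested. Without vehicle 4 the changes were 1.02 for Mcm3 and 0.97 for Mcm2, and without 12-HETE 4 that of Mcm2 was 0.90, and none of these passed.

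Rrm1, the large subunit of ribonucleotide reductase, which makes deoxyribonucleotides, had 24 and 38 counts in vehicle and 115 and 59 with 12-HETE (log2 1.29 ± 0.27, adjusted p = 0.00031). Its higher 12-HETE library carried the call, since without 12-HETE 4 the change was 0.79 and did not pass. Fen1, the nuclease that trims Okazaki fragments, was the best measured of the group, with 416, 380, 625 and 752 counts (log2 0.60 ± 0.11, adjusted p = 9.2e-05). Its call held whichever of the 4 libraries was left out.

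Of the 7 tested genes most abundant opposite a replication fork gene, 6 were higher and 0 lower, with a median of 0.63, and opposite the MCM list 3 of 5 were higher with a median of 0.59. The following 3 were chosen after their values were seen. Gm12743, opposite the origin recognition gene Orc1 and the gene Cc2d1b, had 82 and 87 counts and then 213 and 215 (log2 1.15 ± 0.15, adjusted p = 1.5e-07). Gm52240, opposite the helicase cofactor gene Cdc45, had 85, 73, 150 and 168 counts (log2 0.82 ± 0.16, adjusted p = 0.00018). Ubxn6, opposite the histone chaperone gene Chaf1a, had 553 and 533 counts and then 1070 and 1110 (log2 0.82 ± 0.10, adjusted p = 3.3e-08). In each the 12-HETE libraries lay above the vehicle libraries.

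Genes of spindle assembly and chromosome segregation gave the largest cell cycle list, with 9 of 39 tested members higher, 2 lower and a median of 0.32. Of the 23 with no gene opposite 4 were higher and 0 lower, with a median of 0.32. Aurka, the kinase that matures centrosomes, had 104 and 117 counts in vehicle and 258 and 220 with 12-HETE, or 93.1 ± 5.68 and 176 ± 11 CPM (SD, n = 2), a 1.89-fold rise (log2 0.92 ± 0.14, adjusted p = 4.5e-06). Ncapd2, a condensin subunit that compacts mitotic chromosomes, had 87, 87, 157 and 160 counts (log2 0.68 ± 0.15, adjusted p = 0.00086). Cenpu, a kinetochore gene, went the other way, from 188 and 198 counts to 107 and 85 (log2 -1.20 ± 0.14, adjusted p = 4.2e-08). The usual proliferation markers did not pass. Mki67 had 44, 62, 77 and 74 counts (log2 0.32 ± 0.22, adjusted p = 0.28), Top2a had 84, 90, 115 and 85 (log2 0.01 ± 0.18, adjusted p = 0.98), and Ccnb1, the mitotic cyclin, had 13, 10, 24 and 13 (log2 0.49 ± 0.44, adjusted p = 0.44). Cdc23, a subunit of the anaphase-promoting complex opposite the mitotic kinesin gene Kif20a and picked after its values were seen, showed 1620, 1531, 3005 and 2903 counts (log2 0.72 ± 0.09, adjusted p = 2.3e-07).

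Promoters of replication and mitotic genes often carry the letters CCAAT, the site read by the factor NF-Y, and are shown for 4 raised genes because these letters are shared by them. The sequences are the 250 bases before the first start site listed for each gene in the RefSeq GRCm38.p6 promoters. They are written 5′ to 3′ along the strand of the gene, with each CCAAT, or its reverse complement ATTGG, in capitals. That of Mcm3 is chr1:20820313-20820562 on the minus strand, with 3 matches whose first bases lie 117, 72 and 32 bases before the start. For Rrm1 it is chr7:102441445-102441694 on the plus strand, with matches at 91 and 45 bases. The Aurka promoter is chr2:172370571-172370820 on the minus strand, with matches at 51 and 19 bases, and that of Ncapd2 is chr6:125191587-125191836 on the minus strand, with matches at 177, 148 and 48 bases. For Aurka and Ncapd2 the start used lies inside the bounds of the gene, which reach 172370886 and 125192100, so it is not their outermost start.
Mcm3: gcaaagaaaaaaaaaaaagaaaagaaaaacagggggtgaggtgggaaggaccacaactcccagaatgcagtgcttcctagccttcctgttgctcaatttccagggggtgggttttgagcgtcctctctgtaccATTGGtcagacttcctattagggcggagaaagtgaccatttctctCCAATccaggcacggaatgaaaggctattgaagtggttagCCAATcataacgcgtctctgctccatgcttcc
Rrm1: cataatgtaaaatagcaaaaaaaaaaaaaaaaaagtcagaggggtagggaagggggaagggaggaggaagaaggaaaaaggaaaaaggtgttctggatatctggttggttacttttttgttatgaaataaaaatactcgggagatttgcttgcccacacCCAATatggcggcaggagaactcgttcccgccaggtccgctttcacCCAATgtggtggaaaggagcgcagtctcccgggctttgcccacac
Aurka: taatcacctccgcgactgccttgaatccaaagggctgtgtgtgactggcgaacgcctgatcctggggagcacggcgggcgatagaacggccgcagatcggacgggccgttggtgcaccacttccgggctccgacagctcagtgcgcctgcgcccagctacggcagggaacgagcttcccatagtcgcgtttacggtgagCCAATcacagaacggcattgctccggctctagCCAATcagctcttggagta
Ncapd2: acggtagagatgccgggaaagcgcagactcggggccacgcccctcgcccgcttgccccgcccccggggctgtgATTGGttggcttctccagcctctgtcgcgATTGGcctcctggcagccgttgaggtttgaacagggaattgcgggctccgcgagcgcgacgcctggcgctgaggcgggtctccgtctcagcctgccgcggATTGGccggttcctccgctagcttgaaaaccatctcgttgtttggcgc

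The search used windows from 250 bases before to 50 after the start and both strands. It counted genes, and a gene matched if any of its listed promoters did. CCAAT was found in 11096 of 27025 genes with a RefSeq promoter (41.1%) and in 2064 of the 5173 of them that were tested (39.9%). It was in 149 of 320 called higher (46.6%) and in 171 of 425 called lower (40.2%). Among tested genes it was in 25 of 33 mitotic genes (75.8%), 7 of 9 MCM genes (77.8%) and 7 of 14 fork genes (50%), and in 5 of the 9 mitotic genes that passed (55.6%). The E2F motif TTTNGCGC was in 135 of the tested genes (2.61%) and in 4 of 9 MCM genes (44.4%). It was in 1 of the 3 MCM genes and 0 of the 4 fork genes that passed. The cell cycle homology region, TTTGAA or TTCGAA, was in 921 of the tested genes (17.8%), in 21 of 33 mitotic genes (63.6%) and in 4 of the 9 mitotic genes that passed (44.4%). These matches describe the families, and no binding was measured.

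Cyclins and their kinases had 5 of 29 tested members higher, 2 lower and a median of 0.15. The share higher (17.2%) was near the 15.1% of all genes tested, and the share lower (6.90%) was below their 14.2%. In the 12 members with no gene opposite 1 was higher and 2 were lower, with a median of -0.10. Ccnd1, the cyclin that couples growth signals to the cycle, had 32, 43, 71 and 73 counts (log2 0.75 ± 0.22, adjusted p = 0.0093), and the change was 0.58 without vehicle 4 and 0.68 without 12-HETE 5, neither past the test. It lies at chr7:144929931-144939831 on the minus strand and its bounds overlap those of LTO1 on the plus strand, a ribosome and iron-sulphur maturation gene chosen after its values were seen. LTO1 held 1204 and 1180 counts in vehicle and 3533 and 3565 with 12-HETE (log2 1.39 ± 0.10, adjusted p = 1.4e-13). Ccne2, the cyclin of entry into S phase, had 79, 79, 149 and 129 counts (log2 0.62 ± 0.16, adjusted p = 0.0027, and 0.53 without vehicle 5, which did not pass). Ints8, an Integrator subunit on its opposite strand that was also picked after its values were seen, showed 153, 150, 502 and 482 counts (log2 1.51 ± 0.12, adjusted p = 2.2e-12). Ccnl1, a cyclin of the splicing machinery, fell from 96 in each vehicle library to 61 and 54 (log2 -0.93 ± 0.19, adjusted p = 0.00018).

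The p53 targets, which halt the cycle after damage, had 0 of 14 tested members higher and 2 lower, with a median of -0.25, and 0 and 2 of the 11 with no gene opposite, also at -0.25. Among them Cdkn1a, the inhibitor p21, had 14, 36, 34 and 16 counts, with overlapping groups (log2 -0.19 ± 0.36, adjusted p = 0.75). DNA repair genes were divided, with 2 of 21 higher, 2 lower and a median of 0.01, which was below 0 under most alternative settings, and 0 of the 11 with no gene opposite passed in either direction. Ercc1, a subunit of an excision repair nuclease, rose from 94 and 87 counts to 201 and 228 (log2 1.06 ± 0.16, adjusted p = 4.5e-06), and its neighbour Ercc2, a repair and transcription helicase, fell from 247 and 263 counts to 137 and 113 (log2 -1.22 ± 0.14, adjusted p = 1.7e-08). Ercc2 averaged 216 counts over the 8 libraries, and Klc3 on its opposite strand 251.5. Of 17 tested histone genes 2 were higher and 1 was lower, all among the 16 with no gene opposite. H2ac8 had 12, 4, 30 and 83 counts (log2 2.62 ± 0.48, adjusted p = 5.1e-05), and the histone genes are near copies that can share reads.

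**Figure D2:**
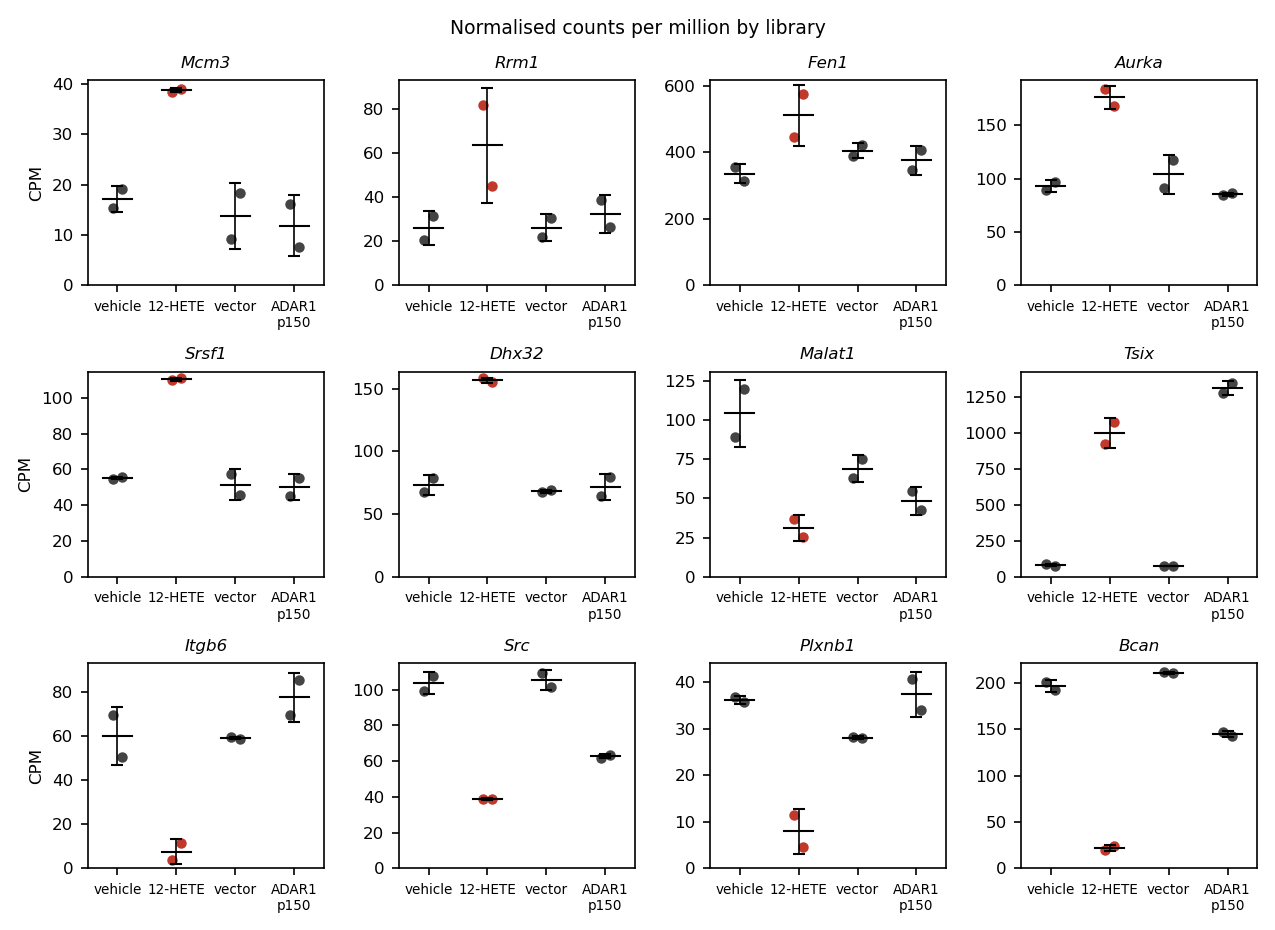
TMM-normalised CPM of 12 genes in each of the 8 libraries (points), with the mean and SD of each group of 2. The 12-HETE points (red) lie above the vehicle points for Mcm3, Rrm1, Fen1, Aurka, Srsf1, Dhx32 and Tsix and below them for Malat1, Itgb6, Src, Plxnb1 and Bcan.

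Splicing and RNA processing genes, over 10 lists, had 184 tested members of 360 measured, with 25 higher (13.6%), 13 lower (7.07%) and a median of 0.15. The share that was higher was close to that of all genes tested. Of the 102 members with no gene opposite 9 were higher and 6 lower, with a median of 0.15. Of the genes opposite a member 29 of 84 were higher and 5 lower, with a median of 0.31. Among members with a mean count of at least 50 the median was -0.026. Members higher numbered 15 without vehicle 4 and 16 without 12-HETE 4, members lower 7 without vehicle 5 and 5 without 12-HETE 5, the median without vehicle 4 was 0.034, and DESeq2 passed 8 higher and 5 lower.

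SR proteins, which bind exonic enhancers and recruit the spliceosome, had 2 of 24 tested members higher and 0 lower, with a median of 0.21. The share higher was below the 15.1% of all genes tested. With no gene opposite, 1 of 16 was higher, at a median of 0.28. Srsf1, the founding member, had 64 and 67 counts in vehicle and 154 and 145 with 12-HETE, or 55.2 ± 0.56 and 110 ± 0.84 CPM (SD, n = 2), a 2.00-fold rise (log2 1.00 ± 0.17, adjusted p = 2.5e-05). Srsf2 had 29, 24, 71 and 55 counts (log2 1.05 ± 0.25, adjusted p = 0.0012, and 0.83 without vehicle 5, which did not pass). The transporter gene Mfsd11 on its opposite strand, picked after its values were seen, went from 927 and 864 counts to 2464 and 2494 (log2 1.28 ± 0.10, adjusted p = 1.5e-12). Srsf3 had 9, 8, 26 and 11 counts and did not pass (log2 0.92 ± 0.48, adjusted p = 0.15). The genes most abundant opposite an SR gene were higher in 4 of 8, with a median of 0.52.

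The hnRNP proteins, which coat nascent RNA and often oppose SR proteins at exons, had 3 of 27 tested members higher and 0 lower, with a median of 0.26. The share higher was below the 15.1% of all genes tested. Of the 16 hnRNP members with no gene opposite 0 passed in either direction, with a median of 0.095. Hnrnpab had 285, 248, 448 and 378 counts (log2 0.44 ± 0.12, adjusted p = 0.0035), and the change was 0.25 without vehicle 5 and 0.36 without 12-HETE 4, neither past the test. Hnrnpa2b1 had 16, 15, 26 and 27 counts and did not pass (log2 0.58 ± 0.35, adjusted p = 0.22). Opposite the hnRNP genes, 8 of 11 tested genes were higher and 0 lower, with a median of 0.55. Of these, all chosen after their values were seen, Phykpl opposite Hnrnpab had 2372, 2255, 5579 and 5973 counts (log2 1.13 ± 0.10, adjusted p = 2.2e-11). Rmi1 opposite Hnrnpk had 643, 644, 1258 and 1128 (log2 0.70 ± 0.10, adjusted p = 4.8e-07), and Plppr3 opposite the splicing repressor gene Ptbp1 had 1746, 1630, 3225 and 2958 (log2 0.68 ± 0.09, adjusted p = 5.9e-07). In each the 12-HETE libraries were above the vehicle libraries.

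Core spliceosome lists had members in both directions. The U2 snRNP and 3′ splice site list had 3 of 19 members higher and 1 lower (median 0.02), the U1, U4/U6, U5 and Sm list 3 of 23 higher and 1 lower (median -0.00), and the list of assembly, catalysis and exon junction factors 4 of 27 higher and 2 lower (median 0.17). Their shares higher, 13.0% to 15.8%, were near the 15.1% of all genes tested. Their shares lower, 4.35% to 7.41%, were below the 14.2% of all genes tested. Among members averaging 50 counts or more the U2 median was -0.42. The U1 list median was 0.29 without 12-HETE 5, 0.17 without vehicle 5, 0.22 with at least 10 counts in every library and 0.26 in the 14 members with no gene opposite, of which 1 was higher and 0 lower. In members with no gene opposite the U2 list had 2 of 11 higher and 1 lower (median 0.02) and the assembly list 1 of 16 higher and 0 lower (median 0.20). Prpf4, a protein of the U4/U6 particle, had 24, 16, 51 and 48 counts (log2 1.11 ± 0.29, adjusted p = 0.0029, and 0.76 without vehicle 5, which did not pass). Wbp11, a splicing factor, had 15, 17, 50 and 41 counts (log2 1.31 ± 0.30, adjusted p = 0.0011). DEAD and DEAH box RNA helicases, which remodel RNA in splicing and translation, had 5 of 24 higher and 1 lower (median 0.21, and -0.044 among members averaging 50 counts or more), and 3 of 15 higher and 0 lower with no gene opposite (median 0.43). Ddx3x rose from 27 and 19 counts to 77 and 72 (log2 1.5 ± 0.27, adjusted p = 4.4e-05), and Dhx32 from 79 and 95 to 222 and 203 (log2 1.10 ± 0.15, adjusted p = 5.7e-07). The Rbm list was evenly divided, with 3 of 17 higher and 3 lower, although its name pattern also took in an antisense gene, and 0 and 2 of the 7 with no gene opposite. Cleavage and polyadenylation factors had 0 of 14 higher and 2 lower, with a median of -0.26, which was 0.06 without vehicle 5, and 0 and 1 of the 7 with no gene opposite.

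Architectural RNAs of the nucleus did not move together, with 3 of 13 tested members higher and 4 lower, and 0 and 3 of the 5 with no gene opposite. Malat1, known as an abundant RNA of splicing speckles, averaged only 77.75 counts over the 8 libraries. The counts assigned to Malat1 fell from 104 and 144 to 52 and 33, or from 104 ± 21.5 to 31.2 ± 8.36 CPM (SD, n = 2; log2 -1.73 ± 0.21, adjusted p = 4.3e-08). Whether these counts came from its own transcript was not tested. Neat1, the scaffold of paraspeckles, which hold edited RNA, had 14, 6, 4 and 2 counts and was under the minimum for testing. Tsix, described above, belongs to the same list.

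Adhesion genes, over 13 lists of junction, matrix and cytoskeleton genes, had 212 tested members of 608 measured, with 24 higher (11.3%), 34 lower (16%) and a median of -0.06. The 132 members with no gene opposite had 17 higher and 21 lower, with a median of -0.05, and of 84 opposite genes 17 were higher and 21 lower, with a median of 0.13. Members higher numbered 11 without vehicle 4, 14 without 12-HETE 4 and 15 without 12-HETE 5, members lower 19 without 12-HETE 5, and DESeq2 passed 9 higher and 16 lower. The protocadherin clusters had 0 tested members.

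Integrins, the heterodimeric receptors for matrix, had 2 of 14 tested genes higher and 3 lower (1 and 1 of the 6 with no gene opposite), a list whose name pattern also took in the binding protein gene Itgb1bp1. Itgb6, the epithelial subunit that activates latent TGF-beta, had 81 and 61 counts in vehicle and 5 and 15 with 12-HETE, or 60.0 ± 13.3 and 7.5 ± 5.6 CPM (SD, n = 2), and was 8.0-fold lower (log2 -3.00 ± 0.32, adjusted p = 2.8e-09). Itga6, a laminin receptor subunit, had 164, 200, 170 and 121 counts (log2 -0.51 ± 0.16, adjusted p = 0.013), and the change was -0.46 without vehicle 5 and -0.34 without 12-HETE 5, neither past the test. Itgb1, the common beta subunit, had 125, 146, 207 and 203 counts (log2 0.41 ± 0.15, adjusted p = 0.043) and lost its call whichever library was left out, at 0.32 to 0.45. Gm34845, opposite the collagen receptor gene Itga2 and picked after its values were seen, showed 51, 53, 26 and 32 counts (log2 -1.03 ± 0.25, adjusted p = 0.0018).

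The adhesome, the proteins that link integrins to actin and to signalling, had 2 of 27 tested members higher and 6 lower, with a median of -0.14, and 1 and 6 of the 16 with no gene opposite, at -0.22. Src, the kinase of focal adhesions, fell from 116 and 130 counts to 54 and 51, or from 104 ± 6.04 to 38.8 ± 0.38 CPM (SD, n = 2; log2 -1.42 ± 0.18, adjusted p = 7.5e-08). Ilk, the integrin-linked pseudokinase, rose from 222 and 232 counts to 353 and 378 (log2 0.50 ± 0.12, adjusted p = 0.0012). It averaged 281 counts over the 8 libraries, and Rrp8 on its opposite strand 501.

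Cadherins, catenins and adherens junction genes had 0 of 15 tested members higher and 6 lower, with a median of -0.41. Of the 10 with no gene opposite 0 were higher and 3 lower, and the median was -0.10. Cdh1, E-cadherin, was at 0 in every library, and Cdh2, N-cadherin, at 3, 2, 5 and 6 counts was under the minimum. Cdh6, a type II cadherin picked after its values were seen, showed 32, 19, 6 and 7 counts (log2 -2.14 ± 0.42, adjusted p = 0.00016). Dsp, desmoplakin, which ties desmosomes to keratin, had 80, 107, 69 and 48 counts (log2 -0.87 ± 0.22, adjusted p = 0.0025, and -0.68 without 12-HETE 5, which did not pass). Among other receptors, Plxnb1, the plexin that binds the semaphorin Sema4d, fell from 43 in each vehicle library to 16 and 6 counts, or from 36.2 ± 0.81 to 8.0 ± 4.82 CPM (SD, n = 2; log2 -2.15 ± 0.33, adjusted p = 4.1e-06). It averaged 34.25 counts over the 8 libraries, and Gm7628 on its opposite strand 150. Cd151, a tetraspanin partner of integrins, had 35, 35, 20 and 19 counts (log2 -1.03 ± 0.30, adjusted p = 0.0076, and -1.01 without 12-HETE 4, which did not pass). Cd151 averaged 29.1 counts over the 8 libraries, and Gm10575 on its opposite strand 439. Cd44, the hyaluronan receptor, had 78, 77, 82 and 82 counts and did not pass (log2 -0.11 ± 0.19, adjusted p = 0.73). Sema3c, a secreted semaphorin, had 12, 28, 57 and 46 counts (log2 1.17 ± 0.32, adjusted p = 0.0047), with 0.71 without vehicle 4 and 1.06 without 12-HETE 4, neither past the test.

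Matrix glycoproteins and proteoglycans had 3 of 22 tested members higher and 3 lower, and matrix enzymes and inhibitors 2 of 23 higher and 3 lower, with medians of -0.05 and -0.17, the latter 0.04 among members averaging 50 counts or more and the former 0.00 without 12-HETE 5. With no gene opposite, 1 of 13 glycoprotein genes was higher and 2 lower, and 2 of 15 enzyme genes were higher and 3 lower, at medians of -0.05 and -0.24. Tgm2, the matrix-crosslinking transglutaminase, rose from 21 and 29 counts to 87 and 77 (log2 1.52 ± 0.24, adjusted p = 4.9e-06). Tnxb, tenascin-X, fell from 152 and 162 to 82 and 84 (log2 -1.11 ± 0.15, adjusted p = 4.4e-07), and 8030451A03Rik, opposite the tenascin-C gene Tnc, from 114 and 81 to 20 and 14 (log2 -2.70 ± 0.25, adjusted p = 1.9e-10). Fn1, fibronectin, had 427, 544, 590 and 483 counts and did not pass (log2 -0.05 ± 0.12, adjusted p = 0.82), and neither did the intermediate filament gene Vim, with 29, 43, 65 and 51 (log2 0.50 ± 0.24, adjusted p = 0.13).

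Tubulin and microtubule genes had 6 of 17 higher and 1 lower, with a median of 0.46, and 4 of 11 higher and 0 lower with no gene opposite, at 0.41. Actin genes had 2 of 38 higher and 4 lower, with a median of 0.14, and 2 and 4 of the 30 with no gene opposite, at 0.07. Tuba1b, an alpha-tubulin, had 67, 65, 114 and 201 counts (log2 1.07 ± 0.21, adjusted p = 0.00014), and without 12-HETE 5 the change was 0.55 and did not pass. The predicted gene Gm41396, which spans it on the opposite strand of chromosome 15 and was picked after its values were seen, showed 4470, 4321, 9773 and 9214 counts (log2 0.92 ± 0.09, adjusted p = 5.2e-10). Dync1h1, the dynein heavy chain, fell from 166 and 212 counts to 93 and 81 (log2 -1.31 ± 0.17, adjusted p = 1.5e-07). It averaged 125 counts over the 8 libraries, and Gm35558 on its opposite strand 681. Rhob, a GTPase of endosomes and stress fibres, fell from 124 and 116 to 88 and 68 (log2 -0.81 ± 0.18, adjusted p = 0.00058), and the keratin gene Krt80 from 183 and 202 to 120 and 104 (log2 -0.97 ± 0.14, adjusted p = 1.6e-06). Krt80 averaged 191 counts over the 8 libraries, and Gm35853 on its opposite strand 1222.5. Of 5 tested regulators of epithelial to mesenchymal transition 0 passed in either direction.

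**Figure D3:**
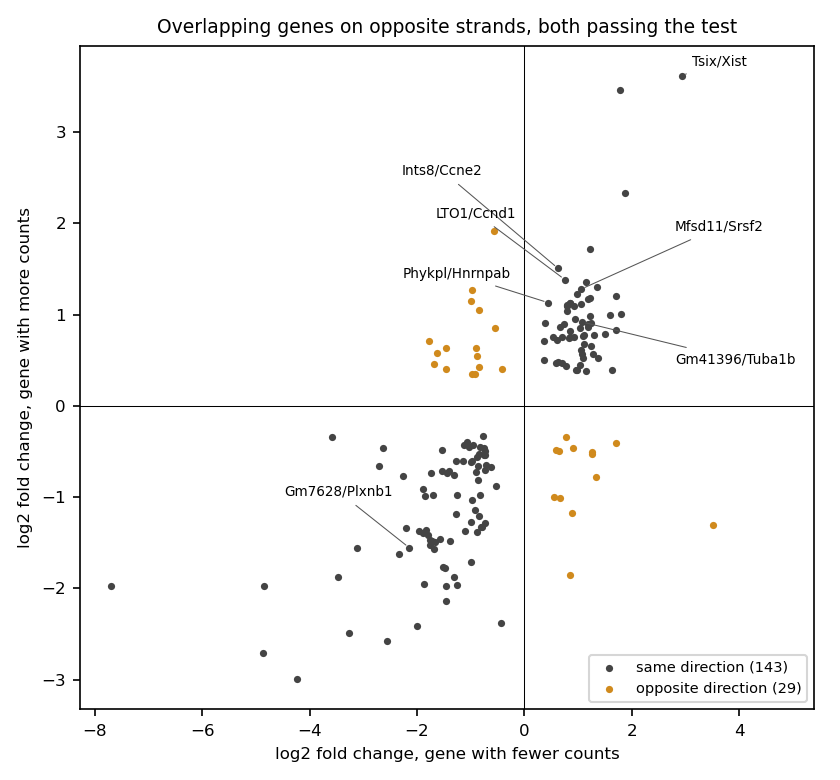
Log2 fold change, 12-HETE against vehicle, of both genes in the 172 pairs on opposite strands whose members both passed the test, with the gene of fewer counts on the x axis. In 143 pairs (dark) both genes moved the same way and in 29 (orange) opposite ways, and named pairs give the more abundant gene first.

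Overlapping partners could be compared directly. In 1449 pairs of genes on opposite strands both genes were tested, and in 172 of these both passed at the adjusted p, of which 143 pairs moved in the same direction and 29 in opposite directions. LTO1 with Ccnd1, Ints8 with Ccne2, Mfsd11 with Srsf2, Phykpl with Hnrnpab and Gm41396 with Tuba1b were all pairs in which both genes rose. A gene with an opposite partner made up 57.3% of genes called higher, 54.0% of genes called lower and 58.0% of all tested genes. These pairs do not separate a change on one strand from a change on both.

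Outside these 3 groups, gene lists moved in both directions. Over the 51 lists with at least 10 tested members, 28 had more members higher and 18 more members lower, and without vehicle 4 those with more higher numbered 18. Cholesterol and fatty acid synthesis genes had 7 of 18 tested members higher and 0 lower, with a median of 0.41, and 7 of 12 members with no gene opposite, with a median of 0.73. Scd2, a fatty acid desaturase, rose from 42 and 62 counts to 187 and 141, or from 43.7 ± 11 to 121 ± 18.0 CPM (SD, n = 2; log2 1.46 ± 0.20, adjusted p = 6.0e-07). Opposite genes moved likewise, 4 of 8 higher with a median of 0.88. Among these, chosen after their values were seen, Gm51557 opposite the mevalonate decarboxylase gene Mvd had 29, 37, 138 and 171 counts (log2 2.04 ± 0.21, adjusted p = 1.5e-09), and 4930483K19Rik opposite the lanosterol synthase gene Lss had 47, 51, 179 and 176 (log2 1.67 ± 0.18, adjusted p = 3.0e-09). In both the 12-HETE libraries were far above the vehicle libraries.

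Cytosolic chaperones had 6 of 27 members higher and 2 lower (median 0.29) and proteasome subunits 5 of 17 higher and 1 lower (median 0.51). With no gene opposite, 2 of 17 chaperones were higher and 1 lower (median 0.14), and 4 of 13 proteasome genes higher and 1 lower (median 0.51). Of ER stress and protein folding genes 5 of 20 were higher and 2 lower, and of NRF2 targets 1 of 17 was higher and 0 lower. Hspa8, the constitutive Hsp70, had 150, 188, 331 and 277 counts (log2 0.66 ± 0.15, adjusted p = 0.0010), its co-chaperone Dnaja1 had 23, 34, 78 and 58 (log2 1.06 ± 0.25, adjusted p = 0.0012), and the mitochondrial Hspe1 had 30, 36, 81 and 73 (log2 1.03 ± 0.24, adjusted p = 0.00095). Hspb8, a small heat shock protein of selective autophagy, fell from 95 and 83 counts to 16 and 26 (log2 -2.27 ± 0.25, adjusted p = 5.4e-09). Psme3, a proteasome activator, rose from 20 and 22 to 58 and 57 (log2 1.26 ± 0.29, adjusted p = 0.0011). Lysosome and autophagy genes had 1 of 25 higher and 4 lower (median -0.23, 0.11 among members averaging 50 counts or more, and -0.44 in the 19 with no gene opposite), and the autophagy receptor Sqstm1 fell from 137 and 189 counts to 49 and 55 (log2 -1.83 ± 0.18, adjusted p = 4.7e-10).

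Ribosome biogenesis genes had 4 of 29 tested members higher and 1 lower (median 0.25, and -0.16 among members averaging 50 counts or more), and of the 16 genes opposite them 12 were higher and 0 lower (median 0.76). Of the 16 members with no gene opposite 2 were higher and 0 lower (median 0.29). Gm5928, opposite the nucleolar gene Heatr1, had 72, 66, 187 and 183 counts (log2 1.23 ± 0.16, adjusted p = 2.0e-07). Mroh1, opposite the pre-rRNA processing gene Bop1, had 69, 60, 223 and 203 (log2 1.53 ± 0.16, adjusted p = 1.7e-09), and both were chosen after their values were seen. Cytosolic ribosomal proteins themselves had 0 of 60 higher and 6 lower, with a median of -0.14, and the 6 were among the 49 with no gene opposite. Aminoacyl-tRNA synthetases had 0 of 20 higher and 4 lower (median -0.27), and targets of the stress factor ATF4 with one-carbon and serine genes had 1 of 22 higher and 4 lower (median -0.51). With no gene opposite, 1 of 11 synthetase genes was lower (median -0.11) and 4 of 13 ATF4 and one-carbon genes (median -0.61), with 0 higher in either. Mars1, methionyl-tRNA synthetase, fell from 267 and 326 counts to 67 and 65, or from 249 ± 29.6 to 48.8 ± 1.40 CPM (SD, n = 2; log2 -2.35 ± 0.15, adjusted p = 1.4e-14). It is one of the genes on the strand opposite Ddit3, the stress factor CHOP, as is Mbd6, chosen after its values were seen, with 299, 302, 75 and 62 counts (log2 -2.32 ± 0.14, adjusted p = 4.1e-15). Slc38a2, an amino acid transporter, fell from 141 and 152 to 59 and 74 (log2 -1.33 ± 0.17, adjusted p = 2.2e-07), and the transcription factor gene Cebpb from 77 and 68 to 28 in each 12-HETE library (log2 -1.56 ± 0.24, adjusted p = 2.8e-06).

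Immediate early and AP-1 genes, which respond within minutes to growth factors, had 1 of 19 tested members higher and 8 lower, with a median of -0.56, and 0 and 7 of the 15 with no gene opposite, at -0.86. Myc fell from 26 and 42 counts to 11 and 5, or from 28.6 ± 8.90 to 5.84 ± 2.84 CPM (SD, n = 2; log2 -2.26 ± 0.40, adjusted p = 3.1e-05). Klf6 had 68, 100, 48 and 32 counts (log2 -1.26 ± 0.22, adjusted p = 3.9e-05), and Junb had 36, 56, 23 and 22 (log2 -1.22 ± 0.30, adjusted p = 0.0021, and -0.96 without vehicle 5, which did not pass). Mafg, a small Maf partner, was the member that rose, from 56 and 69 to 146 and 123 (log2 0.91 ± 0.18, adjusted p = 0.00011). Targets of TGF-beta, BMP and YAP had 0 of 20 higher and 4 lower (median -0.44), and 0 and 3 of the 16 with no gene opposite (median -0.36). Among them was Ankrd1, a classical YAP target, which fell from 40 and 50 counts to 5 and 4 (log2 -3.47 ± 0.41, adjusted p = 3.2e-08). Glycolysis and hypoxia genes had 3 of 22 higher and 4 lower, and 1 and 3 of the 13 with no gene opposite. Ndrg1, a hypoxia-responsive gene chosen after its values were seen, fell from 18 and 29 counts to 6 and 4 (log2 -2.39 ± 0.46, adjusted p = 0.00012), and Aldoa, an aldolase, had 280, 321, 274 and 227 (log2 -0.45 ± 0.13, adjusted p = 0.0080, and -0.37 without 12-HETE 5, which did not pass).

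Few counts were assigned to the genes named here from the lipid's own pathway. Alox12 had 11, 14, 6 and 2 counts and Alox15 at most 3 in any library, both under the minimum, and Alox12b and the candidate receptor gene Gpr31b were at 0 throughout. A count of 0 in a library allows an expected count of up to 3 in that library, and the bound is lower where every library is at 0. With the strand setting unknown, low counts of these genes do not show that their transcripts were scarce. For reference, interferon-stimulated genes had 1 of 30 tested members higher and 19 lower, with a median of -1.37, the lowest of the lists with at least 10 tested members, and 1 and 10 of the 16 with no gene opposite, at -1.78. Ifi27l2a fell from 206 and 214 counts to 30 in each 12-HETE library (log2 -2.99 ± 0.18, adjusted p = 5.3e-15). Gm44148, which overlaps the interferon-stimulated protease gene Usp18 on the opposite strand, fell from 1306 and 1191 to 179 and 157 (log2 -3.08 ± 0.11, adjusted p = 3.7e-21), whereas the counts assigned to Usp18, chosen after its values were seen, were 22, 21, 28 and 35 (log2 0.36 ± 0.30, adjusted p = 0.40).

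The 12-HETE effect was then set against that of ADAR1 p150 overexpression, for which Adar itself had 2 and 8 counts in the vector libraries and 181 and 140 in the ADAR1 p150 libraries, and 5, 5, 7 and 6 in the vehicle and 12-HETE libraries (log2 0.18 ± 0.59, adjusted p = 0.85). The effects differed at an adjusted p under 0.05 of the interaction for 1033 of 6901 genes (15%), with 461 (6.68%) more positive with 12-HETE and 572 (8.29%) more negative. Against vector, ADAR1 p150 gave 1001 genes higher (14.5%) and 765 lower (11.1%), with a median of 0.07. Cell cycle genes had a median of -0.10 with ADAR1 p150, with 11 higher and 19 lower. Of the 156 tested members, 9 were more positive and 3 more negative with 12-HETE. Both are smaller shares than the 6.68% and 8.29% of all genes tested. Aurka had 100 and 134 counts in the vector libraries and 120 and 114 in the ADAR1 p150 libraries, and its effects differed by 1.21 ± 0.21 (log2, SE, adjusted p = 0.00010). For Fen1 they differed by 0.71 ± 0.16 (adjusted p = 0.0020). The differences for Mcm3 (1.37 ± 0.51, adjusted p = 0.070) and Mcm2 (1.10 ± 0.49, adjusted p = 0.13) did not pass.

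Of the 184 tested members of the splicing lists, 8 were more positive and 5 more negative with 12-HETE. Both are smaller shares than the 6.68% and 8.29% of all genes tested. The median of the splicing lists under ADAR1 p150 was 0.03. Srsf1 had 63, 52, 64 and 73 counts in the vector and ADAR1 p150 libraries, and its effects differed by 1.04 ± 0.27 (adjusted p = 0.0059). Dhx32 differed by 1.02 ± 0.23 (adjusted p = 0.0018) and Malat1 by -1.23 ± 0.30 (adjusted p = 0.0039). Of the 212 adhesion genes 2 were more positive and 19 more negative with 12-HETE, the latter a share close to the 8.29% of all tested genes and the former a smaller share than their 6.68%. Their median was 0.21 with ADAR1 p150, with 33 higher and 17 lower. Matrix enzymes had a median of 0.66 there and -0.17 with 12-HETE. Itgb6 had 65 and 67 counts in the vector libraries, and 99 and 113 under ADAR1 p150, and its effects differed by -3.39 ± 0.39 (adjusted p = 1.2e-07). Bcan differed by -2.63 ± 0.22 (adjusted p = 1.5e-10) and Plxnb1 by -2.56 ± 0.43 (adjusted p = 5.3e-05).

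Other genes gave like values in both experiments. Mars1 had 313 and 312 counts in the vector libraries and 65 and 79 under ADAR1 p150, and its effects differed by 0.05 ± 0.22 (adjusted p = 0.91). LTO1 had 1090, 1181, 3077 and 3122 counts there, with a difference of 0.23 ± 0.14 (adjusted p = 0.29). Tgm2 had 16, 23, 74 and 62 (difference 0.02 ± 0.39, adjusted p = 0.98), and Scd2 had 24, 33, 106 and 63 (0.19 ± 0.34, adjusted p = 0.77). A p that misses the threshold does not show that the effects were equal. Tsix rose in both, to 1811 and 1779 counts with ADAR1 p150 from 80 and 85, and by less with 12-HETE (difference -0.53 ± 0.18, adjusted p = 0.043). Glycolysis and hypoxia genes had 12 of 22 higher and 0 lower with ADAR1 p150, and 6 members were more negative and 2 more positive with 12-HETE. Histone genes had 0 of 17 higher and 10 lower there, with a median of -0.95, and 4 were more positive with 12-HETE.

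**Figure D4:**
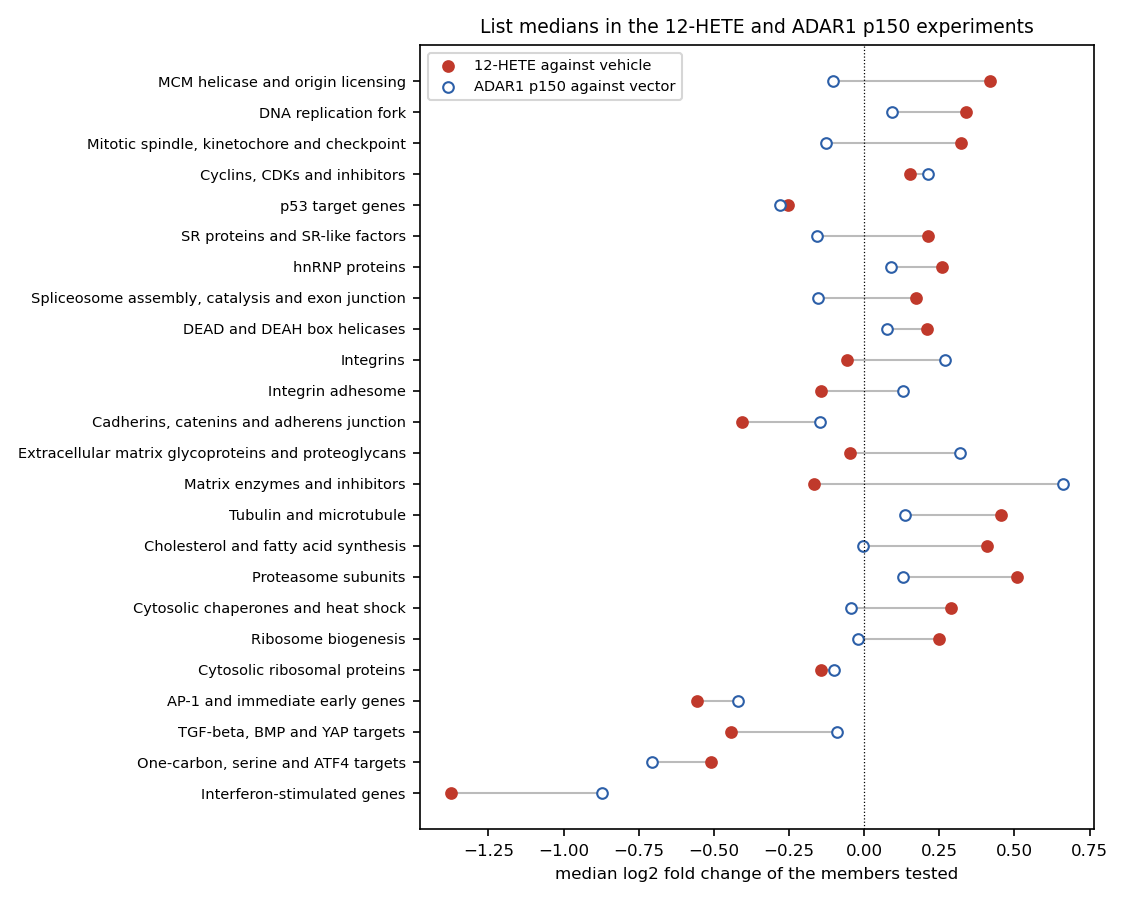
Median log2 fold change of the tested members of 24 gene lists in 12-HETE against vehicle (filled red) and ADAR1 p150 against vector (open blue). The filled points lie to the right for the replication, mitotic and SR lists and to the left for the integrin, matrix and interferon-stimulated lists, as for matrix enzymes at -0.17 and 0.66.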

How the data were processed

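The authors deposited raw counts per gene for 8 RNA-seq libraries of EO771 cells, without normalisation. According to the methods, STAR 2.6.0c aligned the reads to GRCm38 (release 91) and featureCounts 1.6.2 counted fragments. Duplicates were removed with prinseq for the editing analysis, and whether they were also removed before counting is not given in the sources used here. Strand assignment can move counts between overlapping genes. Genes averaging 10 counts or more were kept. All 8 libraries were fitted with TMM factors and edgeR 4.0.16 (limma 3.58.1, R 4.3.3), with 1 coefficient per group, the quasi-likelihood test and Benjamini-Hochberg adjustment, also for the difference between the experiments. Errors of log2 fold changes are standard errors. Replicates differed by more than counting noise (mean chi-square per gene 1.40 to 1.71). In a test on simulated data of 6901 genes, 195 of 200 genes changed 4-fold were called, with 4 unchanged genes. Gene positions and promoters are from RefSeq GRCm38.p6.

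The genes, lists and tests were chosen with earlier results of these data known. Named genes are the 12 highest and 12 lowest called genes that average 50 counts or more and whose groups do not overlap, the 3 smallest adjusted p per list and direction among genes averaging 20 counts or more, and a set list, from which the text gives a selection. Genes outside this rule are marked in the text as picked afterwards, except genes named only as opposite partners. Some genes under the rule are not reported here. Alternatives were DESeq2 1.42.0, other factors and minimum counts, thinning to the smallest total, 4 libraries alone, leaving out AY036118 or each library, a replicate block, other thresholds and members with none opposite. The counts of opposite genes and a crossed block were added after seeing the data.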

Additional observations from a re-analysis of the deposited data

Results flagged for a closer look

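The log2 effect of 12-HETE differed from that of ADAR1 p150 overexpression, by the interaction test in edgeR at an adjusted p under 0.05, for 1033 of 6901 genes and for 47 of the genes named above. The values here are the 12-HETE effect minus the ADAR1 p150 effect on the log2 scale, and a positive value means that the gene moved further upwards, or less far downwards, with 12-HETE.

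Among cell cycle genes and genes opposite them the difference was 3.57 for H2ac8, 1.45 for Ercc1, 1.21 for Aurka, 1.13 for Ubxn6, 1.01 for Gm52240, 0.82 for Gm12743, 0.71 for Fen1, 0.66 for Cdc23 and 0.61 for Ints8, and it was -0.75 for Cenpu. In the splicing group it was 2.50 for Srsf3, which passed in neither experiment and rests on 2 to 26 counts per library, 1.81 for Wbp11, 1.11 for Mfsd11, 1.09 for Phykpl, 1.04 for Srsf1, 1.02 for Dhx32, 0.54 for Plppr3 and 0.51 for Rmi1, against -1.23 for Malat1 and -0.53 for Tsix.

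Most adhesion, matrix and cytoskeleton genes had negative differences, of -3.39 for Itgb6, -2.63 for Bcan, -2.56 for Plxnb1, -2.50 for Ankrd1, -2.18 for Gm34845, -1.35 for Cd151, -1.32 for Krt80, -1.24 for Dsp, -1.15 for Tnxb and -0.60 for Fn1. Positive ones were 0.90 for Gm41396, 0.86 for Ilk and 0.39 for Gm38733. Lipid, chaperone and nucleolar genes or their opposite partners gave 1.76 for Gm5928, 1.35 for 4930483K19Rik, 1.32 for Gm51557, 1.29 for Mroh1 and 1.08 for Hspe1, and -0.98 for Hspb8. Negative differences were also found for Adar (-4.49), which the vector supplies, Ndrg1 (-3.40), D930030F02Rik (-2.21), Trpm1 (-1.93), Krtap5-5 (-1.79), Ifi27l2a (-1.13), Aldoa (-1.01) and Gm44148 (-0.65). With 2 libraries a group, no group was large enough to be searched for a library that stands apart.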

How the results depend on the processing

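Genes higher numbered 422 and fell to 206 with DESeq2, 202 with at least 10 counts in every library and 98 where counts averaged 50 or more, and were 1039 at the adjusted p alone. Genes lower numbered 569 and became 279, 857 without a minimum, 171 and 982 under the count minimums and the adjusted p alone. Leaving out 1 library gave 303 to 381 higher and 501 to 556 lower. Genes whose effects differed from ADAR1 p150 numbered 1033, 449 with DESeq2 and 754 to 933 with 1 library left out.

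Cell cycle members higher (28) became 6 with DESeq2, 18 with 10 counts in every library, 12 with a mean of at least 50, 12 with none opposite, 15 at 2-fold and 15 to 20 with 1 library left out. Members lower (9) became 5 with DESeq2, 15 without a minimum, 14 with 4 libraries alone, 14 without AY036118, 5 with none opposite, 4 at 2-fold and 7 to 9 with 1 library left out. Their median (0.19) was 0.10 with a mean of at least 50, 0.11 without AY036118 and 0.10 to 0.23 with 1 library left out. Splicing members higher (25) became 8, 7 with a mean of at least 50, 9 with none opposite, 15 at 2-fold and 15 to 20, and members lower (13) became 5, 7, 6, 5 and 5 to 11 under the same settings and 8 after thinning to the smallest total. Their median (0.15) was -0.026 with a mean of at least 50 and 0.034 to 0.22 with 1 library left out. Adhesion members higher (24) became 9 with DESeq2, 13 with 10 counts in every library, 6 with a mean of at least 50, 13 at 2-fold and 11 to 17, and members lower (34) became 16, 14 with a mean of at least 50, 21 with none opposite, 20 at 2-fold and 19 to 32. Lists with more members higher than lower (28 of 51) were 17 with DESeq2 and 18 to 33 with 1 library left out, and lists with more lower (18) were 11 on the counts of opposite genes and 14 to 24. The cause of these shifts was not tested, apart from fewer genes or libraries tested.

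The replicate numbers paired no libraries by the labels, and deviations of same-numbered libraries correlated at -0.08 for vehicle and 12-HETE and at -0.11 for vector and ADAR1 p150. With a replicate block, 400 genes were higher and 542 lower, and splicing members lower were 7 in place of 13. With the numbers of the vector and ADAR1 p150 libraries crossed, which was added once the data had been seen, 1118 genes differed, against 859 with the block as numbered. Of 244 named genes 0 reversed under any setting, where a change of sign counted only if the gene passed in the main or the alternative fit. With DESeq2 89 were no longer past the threshold, and many of the 232 that passed lost it when 1 library or another was left out. Itgb1 lost its call under most settings, and 25 of 51 list medians changed sign under some setting. The genes that lost the threshold with DESeq2 included Mcm2, Mcm3, Ccnd1, Ccne2, Srsf2, Hnrnpab, Prpf4, Itga6, Itgb1, Cd151 and Sema3c. Genes of low count, 2 libraries a group and counts shared between strands limit all comparisons.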
